A study of Homo sapiens with 34 samples.

Results

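The E2F and DP transcription factors were followed in 3 human B-ALL cell lines by reading the rows of all 10 family genes, *E2F1* to *E2F8*, *TFDP1* and *TFDP2*, out of the 13307 genes listed in all 6 comparisons of the series. All 10 genes were listed in every comparison, and none was lost to a filter. The members were taken as a whole family, and none was picked by its own values. Earlier results of these data were known when the family was chosen. The lines were BV-173 (BCR-ABL), NALM-6 (ETV6-PDGFRB) and RS4;11 (MLL-AF4). In each line, cells transduced with a lentiviral vector carrying an shRNA against *CCND3* and sorted on day 4 were set against cells given a scrambled shRNA, and cells kept in 1 µM palbociclib for 3 days were set against cells given DMSO. The knockdown and the palbociclib arm therefore had separate controls and different times of collection. Every group comes from 1 established line, and the lines differ in driver fusion, so a difference between lines cannot be told apart from one between fusions. The DMSO group of BV-173 and the *CCND3* shRNA group of NALM-6 held 2 samples and every other group 3, for 34 samples in all.

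E2F factors are the transcription factors at the end of the cyclin D pathway. Cyclin D1, D2 or D3 activates the kinases CDK4 and CDK6, which phosphorylate the retinoblastoma protein RB and its relatives p107 (*RBL1*) and p130 (*RBL2*), and the phosphorylated pocket proteins release the E2F factors they hold. Palbociclib blocks the kinase activity of CDK4 and CDK6, whereas knockdown removes the cyclin itself, so the series asks what each does beyond the other. *E2F1*, *E2F2* and *E2F3* encode activators of genes for S phase. *E2F4* and *E2F5* encode factors that mostly act with p130 and p107 to hold genes down in resting cells, and *E2F6* encodes a repressor that works with Polycomb proteins and does not bind pocket proteins. *E2F7* and *E2F8* encode atypical repressors that bind DNA without a DP partner and counter the activators late in the cycle. *TFDP1* and *TFDP2* encode DP1 and DP2, the partners that *E2F1* to *E2F6* products need to bind DNA.

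The E2F genes can carry E2F sites of their own, so the start sites of the members are shown before their values. RefSeq promoters, from 250 bases before to 50 bases after the start (GRCh38.p14), were given for 8 of the 10 members. They were searched on both strands for 4 words of the classical E2F site, TTTCGCGC, TTTGGCGC, TTTCCCGC and TTTGCCGC, of which none overlapped another in these promoters. The following stretches of 150 bases, from 130 bases before the start to 20 after, are 5′ to 3′ on the strand of the gene, with a word in either orientation in capitals and everything else in lower case. *E2F1* and *E2F2* stand for members that fell in every comparison, *E2F3* and *TFDP1* for members that hold a word and moved less, and *E2F4* and *E2F7* for members without one.
*E2F1* (chr20:33686366-33686515, minus strand): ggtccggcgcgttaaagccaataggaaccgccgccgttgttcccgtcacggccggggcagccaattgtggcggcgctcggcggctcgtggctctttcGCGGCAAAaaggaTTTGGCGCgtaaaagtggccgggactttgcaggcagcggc
*E2F2* (chr1:23531214-23531363, minus strand): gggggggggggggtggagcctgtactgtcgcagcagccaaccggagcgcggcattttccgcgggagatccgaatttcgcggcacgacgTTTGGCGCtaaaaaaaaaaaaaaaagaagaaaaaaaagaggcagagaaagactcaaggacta
*E2F3* (chr6:20401749-20401898, plus strand): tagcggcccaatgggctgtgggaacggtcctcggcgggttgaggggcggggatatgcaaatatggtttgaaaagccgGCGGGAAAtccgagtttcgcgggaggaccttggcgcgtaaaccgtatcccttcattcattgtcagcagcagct
*TFDP1* (chr13:113584623-113584772, plus strand): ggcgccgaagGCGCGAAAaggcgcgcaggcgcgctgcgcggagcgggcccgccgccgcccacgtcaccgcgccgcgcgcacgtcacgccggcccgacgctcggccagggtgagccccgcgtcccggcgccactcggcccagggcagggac
*E2F4* (chr16:67192025-67192174, plus strand): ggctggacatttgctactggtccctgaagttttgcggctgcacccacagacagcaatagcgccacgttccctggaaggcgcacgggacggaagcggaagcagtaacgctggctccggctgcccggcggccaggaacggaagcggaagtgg
*E2F7* (chr12:77065550-77065699, minus strand): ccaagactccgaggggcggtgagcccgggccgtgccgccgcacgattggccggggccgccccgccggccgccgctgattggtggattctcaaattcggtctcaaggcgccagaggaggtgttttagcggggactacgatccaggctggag

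A word stood in 4 of the 11 promoters of these 8 members, whereas 3.31% of all 35116 promoters in the table held one. In *E2F1*, TTTGGCGC began 20 bases before the start and TTTGCCGC lay on the opposite strand, its first base in the direction of the gene 33 bases before it. In *E2F2*, TTTGGCGC began 42 bases before the start. One of the 2 *E2F3* promoters held TTTCCCGC on the opposite strand, 53 bases before the start, and *TFDP1* held TTTCGCGC on the opposite strand, 120 bases before it. No word was found in the promoters of *E2F4*, *E2F6* and *E2F7*, or in the 3 promoters of *TFDP2*. Only exact matches were sought, so a promoter without a word may still hold an E2F site of another sequence or further away. The gene bodies lay at chr20:33675477-33686385 for *E2F1* (NCBI gene 1869), chr1:23505212-23531233 for *E2F2* (1870), chr6:20401879-20493714 for *E2F3* (1871) and chr16:67192155-67198918 for *E2F4* (1874). Those of *E2F6* (1876), *E2F7* (144455) and *E2F8* (79733) lay at chr2:11444375-11466161, chr12:77021251-77065569 and chr11:19224063-19241655, and those of *TFDP1* (7027) and *TFDP2* (7029) at chr13:113584688-113641473 and chr3:141944428-142149544.

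The tables give 1 level per group, made by the authors from all samples of the group, so the spread between the samples of a group and the depth behind each level are unknown. Levels were scaled within the 2 groups of a comparison, and levels set side by side across comparisons or lines carry that limit. Changes within 1 line are given without a test, and a gene counts as past the fold at a ratio of 1.5 or more. Changes over the 3 lines were tested with limma, with the cell line as the unit (n = 3) and a call at a Benjamini-Hochberg adjusted p under 0.1 over all 13307 genes, so that p measures agreement between lines. An exact sign-flip test of a single gene over 3 lines cannot go below 0.25. The SE is limma's, which borrows spread from genes of like level. The median change of all genes over the 3 lines was 0.00 on the log2 scale for knockdown and 0.04 for palbociclib.

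*CCND3* itself was left at 20.7% of the scrambled level in RS4;11, 24.2% in NALM-6 and 31.1% in BV-173. All 9 B-lineage markers were listed in every comparison, with a summed level per group of 49829 to 100179, against 0.869 to 7.70 for the T-cell markers listed and 101 to 1564 for the myeloid markers.

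In the control cells, *E2F4* was abundant in each line, and the lines stood furthest apart in *TFDP2*, *E2F5*, *E2F2* and *TFDP1*. Levels are compared between genes here per kb of gene length. In NALM-6 with scrambled shRNA, *E2F2* was highest at 1735 per kb, followed by *E2F4* at 1452, *E2F1* at 1256, *TFDP1* at 1045 and *E2F8* at 721. In RS4;11 with scrambled shRNA, *TFDP1* led at 2479 per kb, followed by *E2F4* at 1437, *E2F1* at 785, *E2F2* at 718 and *E2F8* at 465. In BV-173 with scrambled shRNA, *TFDP1* at 3184 and *E2F4* at 1951 per kb led as well, and *E2F1* at 899 was followed by *E2F5* at 604 and *E2F2* at 458. The DMSO groups kept *TFDP1*, *E2F4* and *E2F1* as the first 3 in RS4;11 and BV-173, and had *E2F1* ahead of *E2F4* and *E2F2* in NALM-6. Since no spread within a group is known, it cannot be said which neighbours in these orders differ beyond it. The 2 controls of a line, scaled in separate tables, stood as far apart as 718 and 474 per kb for *E2F2* in RS4;11.

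*E2F7* was low throughout, with 58.2 to 139 per kb in the 6 controls, so that *E2F8* carried most of the atypical pair. *E2F5* stood lowest of all in NALM-6, at 83.8 and 67.9 per kb, and in BV-173 it came next after *E2F1*, at 604 and 755. Its table level, not divided by length, spanned 11.6-fold over the 6 controls. That of *TFDP2* spanned 95.7-fold, whereas those of *E2F3*, *E2F6* and *E2F4* spanned 1.17-, 1.34- and 1.36-fold and those of *TFDP1* and *E2F2* 3.91- and 5.03-fold.

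**Figure D1:**
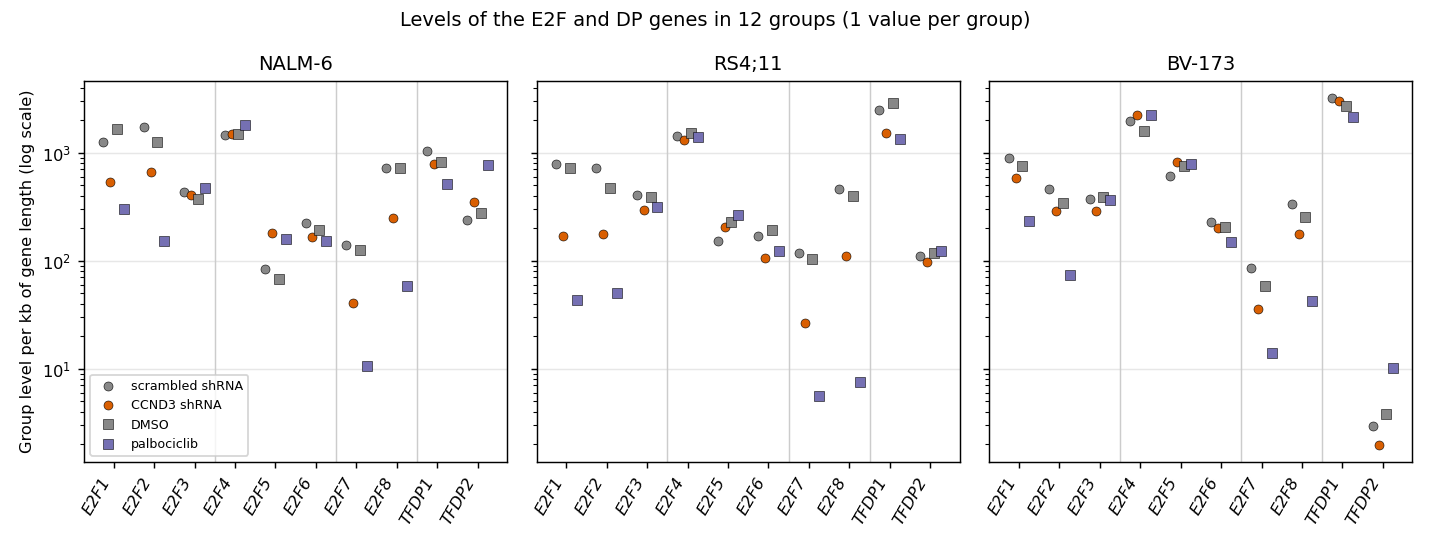
Level per kb of gene length (log axis) of the 10 genes, 1 panel per cell line, with 1 point per group; circles are the shRNA arm, squares the palbociclib arm, and grey points their controls. *E2F1*, *E2F2*, *E2F7* and *E2F8* drop below their controls in all lines, while *E2F4* stays between 1312 and 2251 per kb.

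The E2F genes *E2F1*, *E2F2*, *E2F7* and *E2F8* fell with both treatments. Each was past the fold in 6 of 6 comparisons and was called lower over the 3 lines under knockdown and under palbociclib. In single comparisons 4.78% to 15.0% of all genes were lower by the fold, and the share lower in all 6 together was not counted. Over the 3 lines 7.48% of all genes were called lower with knockdown and 13.6% with palbociclib. *E2F3*, the remaining activator, and *E2F4* were past the fold in none of the 6 and were not called under either treatment.

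The product of the activator gene *E2F1* is itself held by RB, whereas the values here are levels of the transcript. Under *CCND3* knockdown its level went from 3418 to 1452 in NALM-6, from 2137 to 460 in RS4;11 and from 2446 to 1591 in BV-173. Under palbociclib it went from 4519 to 819 in NALM-6, from 1976 to 118 in RS4;11 and from 2064 to 639 in BV-173. The level left was thus 42.5%, 21.5% and 65.0% of control with knockdown and 18.1%, 5.99% and 31.0% with palbociclib, lowest in RS4;11 and highest in BV-173 under each. Over the 3 lines *E2F1* changed by −1.36 ± 0.26 (log2, SE; adjusted p = 0.0279) with knockdown and by −2.74 ± 0.41 (adjusted p = 0.0126) with palbociclib.

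*E2F2*, an activator prominent in lymphoid and erythroid cells, followed the same course. Knockdown took it from 9022 to 3427 in NALM-6, from 3735 to 914 in RS4;11 and from 2382 to 1495 in BV-173. Palbociclib took it from 6546 to 794, from 2467 to 259 and from 1794 to 382 in the same order. All treated groups lay below all controls of the same line, and with palbociclib every treated group, at 794 or less, lay below the lowest control of any line, at 1794. The changes over the lines were −1.37 ± 0.22 (adjusted p = 0.0205) and −2.84 ± 0.21 (adjusted p = 0.00672).

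*E2F3* went from 1979 to 1862, from 1855 to 1371 and from 1715 to 1326 with knockdown in the order NALM-6, RS4;11, BV-173. With palbociclib it went from 1686 to 2174, from 1796 to 1466 and from 1775 to 1698. It was therefore below its control in 3 of 3 lines with knockdown and in 2 of 3 with palbociclib, in no case past the fold. The mean changes were −0.30 ± 0.11 (adjusted p = 0.16) and 0.00 ± 0.16 (adjusted p = 0.992), and the 95% interval of the palbociclib change ran from −0.38 to 0.38 and that of the knockdown change from −0.56 to −0.04. The direction under palbociclib depended on NALM-6, without which the mean was −0.18, and turned to −0.03 once the median of each table was taken out. *E2F3* has 2 annotated pseudogenes, so some of its reads may be shared.

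The atypical repressors had the largest mean falls of the family, though their difference from *E2F1* and *E2F2* was not tested. *E2F7* went from 796 to 233 in NALM-6, from 676 to 153 in RS4;11 and from 490 to 204 in BV-173 with knockdown, and from 718 to 60.1, from 591 to 31.7 and from 334 to 79.7 with palbociclib. *E2F8* went from 2584 to 886, from 1631 to 385 and from 1201 to 637 with knockdown, and from 2563 to 207, from 1470 to 27.8 and from 899 to 152 with palbociclib. In RS4;11 under palbociclib *E2F8* was left at a log2 ratio of −5.73, and only 0.259% of the 15857 genes of that comparison fell further. *E2F7* changed by −1.73 ± 0.20 (adjusted p = 0.0176) with knockdown and −3.29 ± 0.40 (adjusted p = 0.00873) with palbociclib. *E2F8* changed by −1.51 ± 0.21 (adjusted p = 0.0185) and −3.97 ± 0.54 (adjusted p = 0.0104). *E2F7* fell without any of the 4 words in its promoter. *E2F3*, with a word in 1 of its 2 promoters, and *TFDP1*, which holds one, had smaller mean changes than the 4 genes. No promoter of *E2F8* was searched, and a link between words and changes was not tested.

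**Figure D2:**
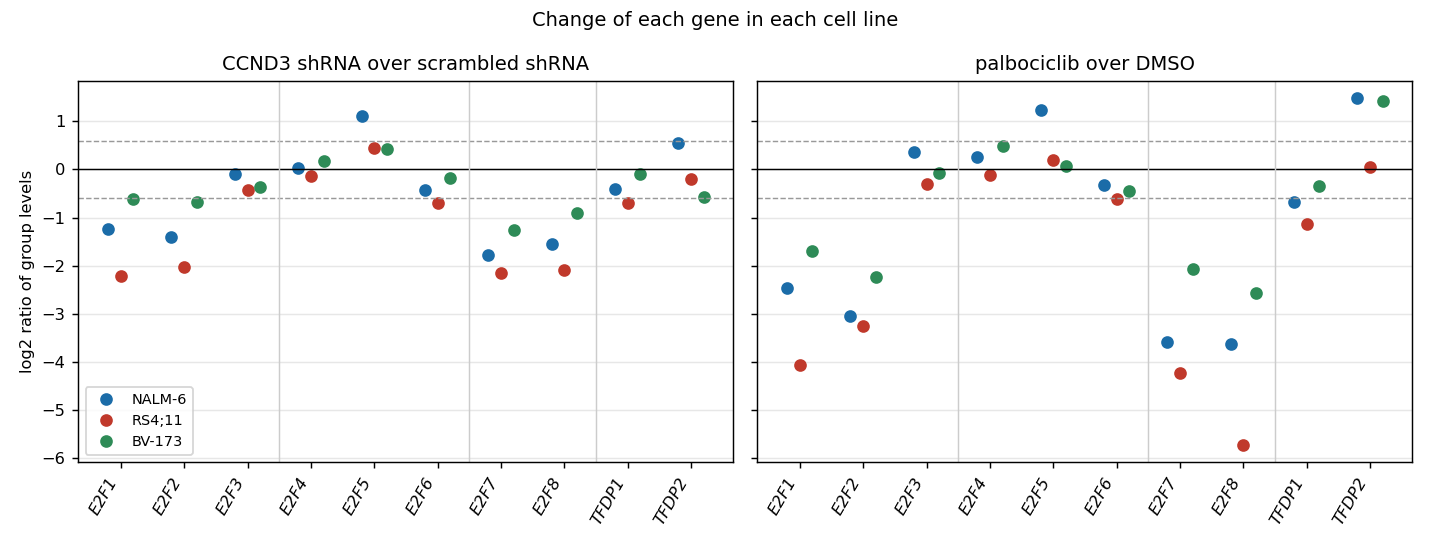
Log2 ratio of treated to control level for each of the 10 genes, by cell line, for knockdown and for palbociclib; each point is 1 ratio of 2 group levels, and dashed lines mark 1.5-fold. *E2F1*, *E2F2*, *E2F7* and *E2F8* lie below the lower dashed line in all 6 comparisons, with RS4;11 lowest and BV-173 highest each time.

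For these 4 genes the lines kept 1 order under both treatments, with the largest fall in RS4;11, then NALM-6, then BV-173. The *CCND3* level left after knockdown was in the same order (20.7%, 24.2% and 31.1%), and its part in the knockdown result was not tested. For *E2F1*, *E2F2*, *E2F7* and *E2F8* the log2 ratios with knockdown were −2.22, −2.03, −2.14 and −2.08 in RS4;11, −1.24, −1.40, −1.77 and −1.54 in NALM-6, and −0.62, −0.67, −1.27 and −0.91 in BV-173. *E2F1* in BV-173 was thus only just past 1.5-fold.

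Of the other E2F genes, *E2F4* was called with neither treatment, *E2F5* was called higher with knockdown and *E2F6* lower with palbociclib. *E2F4*, the main E2F of resting cells, went from 3050 to 3096, from 3019 to 2756 and from 4097 to 4646 with knockdown in the order NALM-6, RS4;11, BV-173, and from 3137 to 3775, from 3161 to 2920 and from 3362 to 4727 with palbociclib. Its mean changes of 0.02 ± 0.10 (adjusted p = 0.919) and 0.21 ± 0.15 (adjusted p = 0.367) were not called, with 95% intervals of −0.22 to 0.26 and −0.15 to 0.58. Without BV-173 its knockdown mean was −0.06. *E2F4* has 1 annotated pseudogene.

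*E2F5* was above its control in 6 of 6 comparisons. Knockdown took it from 142 to 305 in NALM-6, from 254 to 344 in RS4;11 and from 1016 to 1364 in BV-173, and palbociclib from 113 to 265, from 385 to 443 and from 1308 to 1371. It passed the fold only in NALM-6, the line where it started lowest. *E2F5* was called higher with knockdown (0.65 ± 0.17, adjusted p = 0.0694) and not with palbociclib (0.50 ± 0.26, adjusted p = 0.229), and the difference between the 2 changes was −0.15 ± 0.16 (adjusted p = 0.605). The knockdown call was lost without NALM-6 (0.43, adjusted p = 0.304) and without RS4;11 (0.76, adjusted p = 0.124).

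*E2F6* was below its control in 6 of 6 comparisons, past the fold only in RS4;11. It went from 727 to 544, from 551 to 341 and from 738 to 649 with knockdown, and from 620 to 495, from 619 to 403 and from 670 to 488 with palbociclib. The mean changes were −0.43 ± 0.14 (adjusted p = 0.121) with knockdown and −0.47 ± 0.15 (adjusted p = 0.0836) with palbociclib, so only the second was called. That call was lost without any 1 of the lines, at adjusted p of 0.153 without NALM-6, 0.353 without RS4;11 and 0.177 without BV-173. The knockdown change was called without BV-173 (−0.55, adjusted p = 0.0681). *E2F6* has 4 annotated pseudogenes.

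Of the 8 partners of *E2F6* in its Polycomb complex, none was called with knockdown, against 7.48% lower and 4.95% higher over all genes. *PCGF6*, a ring-finger subunit of that complex, had the largest negative mean there (−0.36, adjusted p = 0.222), followed by *WDR5* (−0.32, adjusted p = 0.144), and *YAF2* had the only mean above 0 (0.03, adjusted p = 0.903). With palbociclib 2 were called lower, *PCGF6* (−1.19 ± 0.18, adjusted p = 0.0124) and the WD-repeat protein gene *WDR5* (−0.53 ± 0.14, adjusted p = 0.056), and *L3MBTL2*, a reader of the complex, was called higher (0.47 ± 0.16, adjusted p = 0.094), while the ubiquitin ligase gene *RING1* stood at 0.02 (adjusted p = 0.931). Over all genes, 13.6% were called lower and 11.2% higher with palbociclib, against which 2 and 1 of 8 are not read as particular to the list. The medians of the list were −0.18 and −0.28.

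The make-up of the E2F transcript pool differed between treated and control groups. *E2F1*, *E2F2* and *E2F3* together held 56.6% of the summed level per kb of the 8 E2F genes in NALM-6 with scrambled shRNA and 43.1% with *CCND3* shRNA, and 55.8% with DMSO and 29.9% with palbociclib. In RS4;11 their share was 44.9% and 26.7% in the knockdown arm and 39.6% and 18.7% in the palbociclib arm. In BV-173 it was 35.1% and 25.3%, and 34.1% and 17.2%. The share of *E2F4*, *E2F5* and *E2F6* was higher in each treated group, and reached 67.9%, 80.8% and 81.3% with palbociclib in the order NALM-6, RS4;11, BV-173. Without division by length it was also higher in each treated group, at 52.8%, 66.4% and 69.1% with palbociclib. Which class led could then change. In NALM-6 with *CCND3* shRNA the activators held 57.1% against 33.4% for *E2F4* to *E2F6*, in place of 43.1% against 49.2% per kb.

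The atypical pair held 7.09% to 14.4% in the controls and 2.22%, 0.589% and 1.43% with palbociclib in the 3 lines. The summed level of *E2F4* to *E2F6* stood at 92.3% to 125% of its control over the 6 comparisons. The summed level of the activators stood at 46.7%, 33.7% and 67.1% of control with knockdown and at 28.3%, 25.8% and 45.4% with palbociclib in the order NALM-6, RS4;11, BV-173. These shares have no test, and without division by gene length the mean activator share of the 6 controls would be 54.8% in place of 44.4%.

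**Figure D3:**
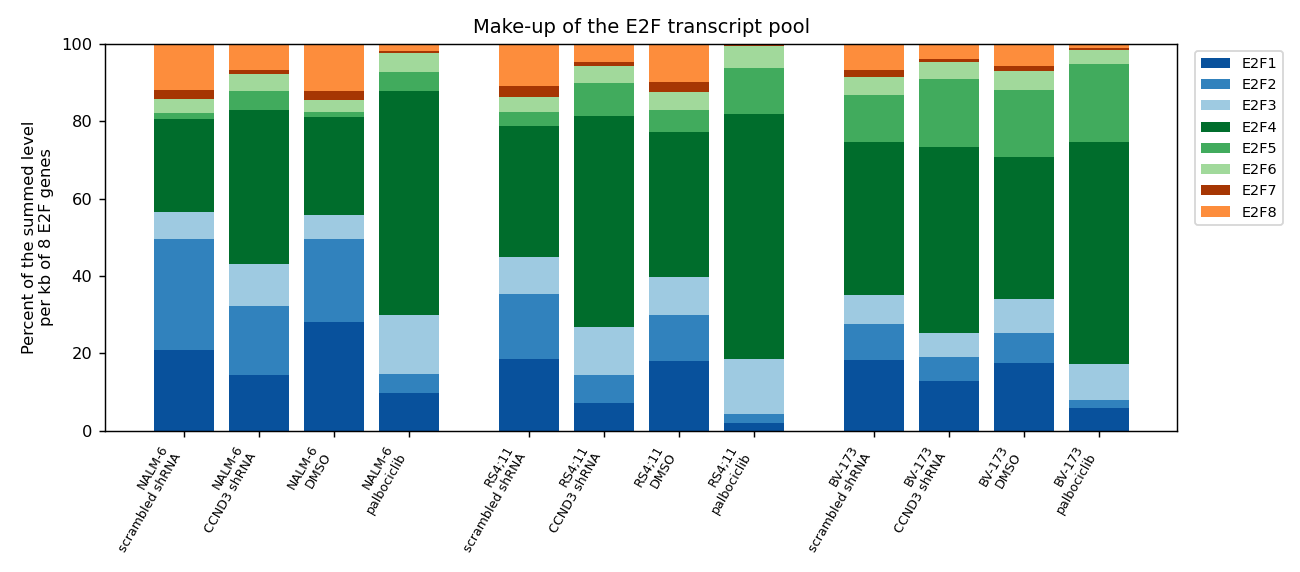
Share of each E2F gene in the summed level per kb of 8 E2F genes (percent, stacked bars from 0 to 100), in 12 groups with 1 value each. Blue (*E2F1* to *E2F3*) and orange (*E2F7* and *E2F8*) parts shrink in treated groups, and with palbociclib the green part (*E2F4* to *E2F6*) reaches 67.9% to 81.3%.

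With palbociclib *TFDP1* was called lower and *TFDP2* higher, and with knockdown neither was called. *TFDP1*, which encodes the common partner DP1, was below control in 6 of 6 comparisons. With knockdown it went from 2769 to 2100 in NALM-6, from 6573 to 4038 in RS4;11 and from 8440 to 7935 in BV-173, and with palbociclib from 2158 to 1352, from 7709 to 3516 and from 7187 to 5641. It was called lower with palbociclib (−0.72 ± 0.17, adjusted p = 0.0424) and not with knockdown (−0.40 ± 0.13, adjusted p = 0.114), and the difference between the treatments, −0.32 ± 0.10, was not called (adjusted p = 0.124). The palbociclib call was lost without NALM-6 (adjusted p = 0.116) and without RS4;11 (adjusted p = 0.184), and the knockdown change was called without BV-173 (−0.55, adjusted p = 0.0389). With the median of each table taken out, the difference was called (−0.36, adjusted p = 0.0959). *TFDP1* has 3 annotated pseudogenes.

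*TFDP2* was the member that differed most between lines. With knockdown it went from 2289 to 3360 in NALM-6, from 1092 to 958 in RS4;11 and from 27.5 to 18.4 in BV-173, so that it was higher in 1 line and lower in the other 2, with BV-173 at −0.58 just short of the fold. With palbociclib it went from 2630 to 7316, from 1162 to 1199 and from 36.2 to 96.5, above control in all 3 lines and past the fold in NALM-6 and BV-173. The mean changes were −0.07 ± 0.21 (adjusted p = 0.878) and 0.98 ± 0.30 (adjusted p = 0.0779), and the difference between the treatments was 1.05 ± 0.30 (adjusted p = 0.0935).

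The palbociclib call of *TFDP2* was lost without NALM-6 (0.73, adjusted p = 0.266) and without BV-173 (0.76, adjusted p = 0.224), and the difference was lost without either (adjusted p = 0.223 and 0.188). Without BV-173 the knockdown mean was 0.18. How steady the ratio of *TFDP2* is at its low level in BV-173 is unknown. Per kb, *TFDP2* made up 18.6% and 25.2% of both DP genes in the NALM-6 controls, 30.6% with knockdown and 59.9% with palbociclib, where it exceeded *TFDP1*. Without division by length these shares were 45.2%, 54.9%, 61.5% and 84.4%, so that *TFDP2* exceeded *TFDP1* with DMSO and with knockdown as well. Per kb, it made up 3.89% to 8.39% in RS4;11 and 0.0655% to 0.477% in BV-173.

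**Figure D4:**
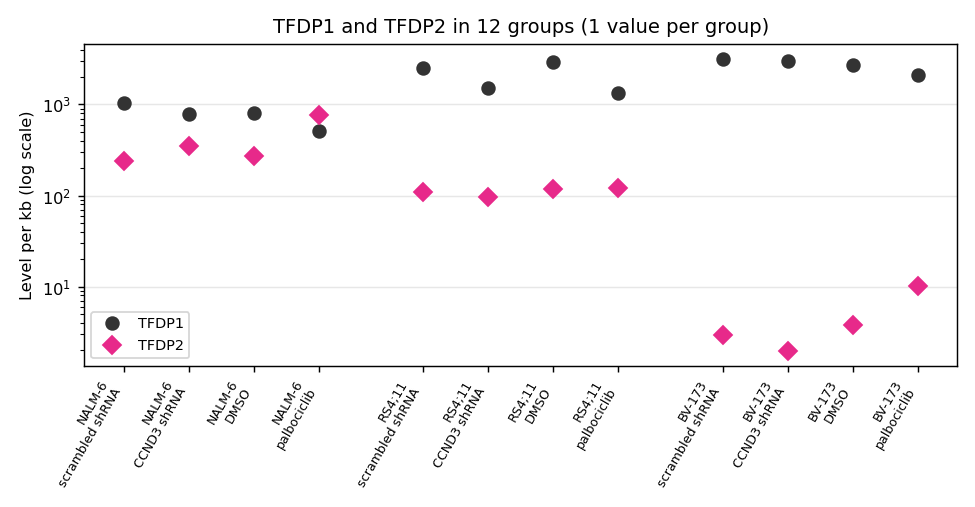
Level per kb (log axis) of *TFDP1* and *TFDP2* in 12 groups, with 1 point per group and no error known. Per kb, *TFDP2* exceeds *TFDP1* only in NALM-6 with palbociclib, at 763 against 510 per kb, and in BV-173 it stays between 1.96 and 10.2 per kb.

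Counted by line, members past the fold were set against all genes of the same comparison. With knockdown 4 of 10 members were lower in NALM-6 (8.47% of all genes), 6 in RS4;11 (9.72%) and 4 in BV-173 (4.78%), where *E2F6* and *TFDP1* were the additional ones in RS4;11. One member, *E2F5*, was higher in NALM-6 (7.82% of all genes), and 0 were higher in RS4;11 (9.73%) and BV-173 (3.32%). With palbociclib 5 members were lower in NALM-6, the 4 genes and *TFDP1* (14.9% of all genes), 6 in RS4;11, with *E2F6* and *TFDP1* (15.0%), and 4 in BV-173 (11.9%). *E2F5* and *TFDP2* were higher in NALM-6 (21.4%), 0 in RS4;11 (16.7%) and *TFDP2* in BV-173 (13.6%). Over the 3 lines, limma called 4 members lower (7.48% of all genes) and 1 higher (4.95%) with knockdown, and 6 lower (13.6%) and 1 higher (11.2%) with palbociclib.

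The fall of the 4 genes was larger with palbociclib than with knockdown in 3 of 3 lines. The difference of the log2 changes was −1.38 ± 0.16 for *E2F1* (adjusted p = 0.00968), −1.48 ± 0.12 for *E2F2* (adjusted p = 0.00627), −1.56 ± 0.27 for *E2F7* (adjusted p = 0.0274) and −2.46 ± 0.34 for *E2F8* (adjusted p = 0.0141). These 4 were the members called lower in the difference, against 7.16% of all genes, and *TFDP2* was the 1 called higher, against 4.16%. The arms also differed in the day of collection and in the way of delivery, and the knockdown left 20.7% to 31.1% of the *CCND3* level. None of these can be told apart from the kind of treatment. Without the trend on the mean level in limma's prior, the differences of *E2F1*, *E2F7* and *E2F8* were no longer called (adjusted p = 0.112, 0.125 and 0.117). The differences for *E2F3* (0.30 ± 0.11, adjusted p = 0.169), *E2F4* (0.19 ± 0.11, adjusted p = 0.341) and *E2F6* (−0.04 ± 0.15, adjusted p = 0.91) were not called.

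**Figure D5:**
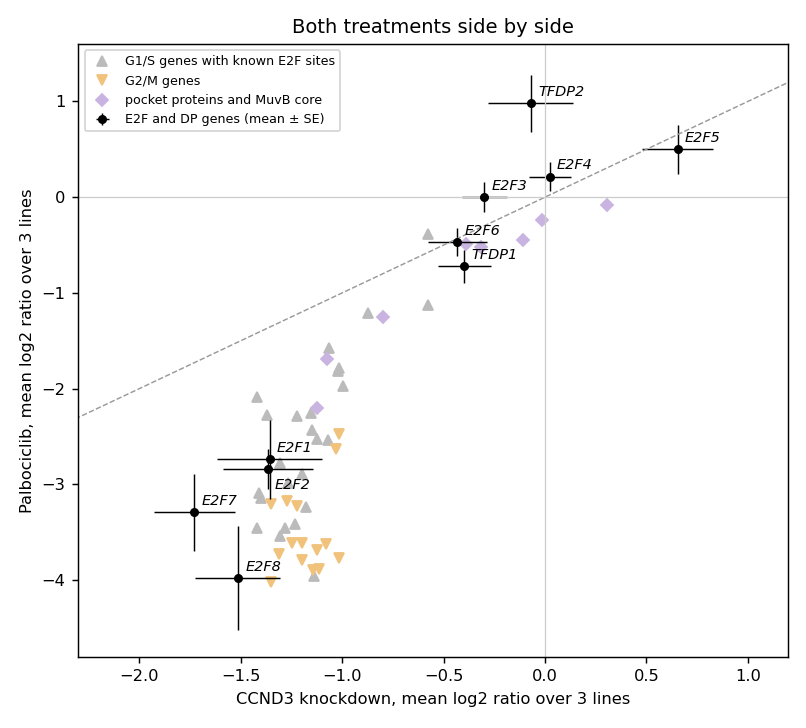
Mean log2 ratio over 3 lines with knockdown (x) and palbociclib (y) for the 10 members (black, with limma SE), for G1/S genes, G2/M genes and pocket protein and MuvB genes; the dashed line marks equal change. *E2F1*, *E2F2*, *E2F7* and *E2F8* lie among the G1/S and G2/M genes, far below the dashed line, and *TFDP2* lies above it.

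The upstream and downstream genes of the pathway were read from lists of known members. Of the 5 D-type cyclins and kinases, *CCND3* was the 1 called with knockdown (adjusted p = 0.00555), where 7.48% of all genes were called lower and 4.95% higher. *CCND1* and *CCND2* had the largest mean rises there, 0.58 (adjusted p = 0.366) and 0.40 (adjusted p = 0.333). The *CCND1* mean rested on RS4;11 (1.70, against −0.08 in NALM-6 and 0.11 in BV-173, with levels of 2.34 to 4.13 in the latter lines). The largest *CCND2* ratio was also in RS4;11 (0.85, against 0.03 in NALM-6 and 0.31 in BV-173), where its level was only 1.93 to 3.48. *CDK6* stood at −0.30 (adjusted p = 0.164). With palbociclib *CCND2*, the cyclin D2 gene, was called higher (2.09 ± 0.38, adjusted p = 0.0195), with a log2 ratio of 3.12 in NALM-6, 1.40 in BV-173 and 1.75 in RS4;11, where its level was only 1.40 to 4.69, while *CCND1* at 1.37 (adjusted p = 0.121), *CCND3* at −0.35 (adjusted p = 0.126) and *CDK4* at −0.29 (adjusted p = 0.241) were not called.

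The MuvB core joins E2F4, DP1 and p130 in the DREAM complex of resting cells. Of the 8 genes for pocket proteins and this core, 3 were called lower with knockdown (7.48% of all genes) and 4 with palbociclib (13.6%). Called higher were 0 with either treatment (4.95% and 11.2% of all genes). *RBL1*, which encodes p107 and is itself an E2F target, changed by −1.12 ± 0.14 (adjusted p = 0.0176) and −2.20 ± 0.24 (adjusted p = 0.00702), and *LIN9* by −1.08 ± 0.17 (adjusted p = 0.0202) and −1.69 ± 0.19 (adjusted p = 0.00773). *LIN37* had the only mean above 0 with knockdown (0.31, adjusted p = 0.48). The list's medians were −0.35 and −0.50.

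Of 25 G1/S genes with known E2F sites, 24 were called lower with knockdown (7.48% of all genes) and 24 with palbociclib (13.6%), with medians of −1.18 and −2.53. With knockdown 24 were lower by the fold in NALM-6 (8.47% of all genes), 25 in RS4;11 (9.72%) and only 7 in BV-173 (4.78%). The knockdown medians in these lines were −1.17, −1.82 and −0.54. With palbociclib 24, 25 and 24 were lower by the fold in the same order (14.9%, 15.0% and 11.9% of all genes). *CDC45* and *UHRF1*, for a replication fork protein and a maintenance factor of DNA methylation, had the largest knockdown falls (−1.42 ± 0.24, adjusted p = 0.0222, and −1.42 ± 0.24, adjusted p = 0.0225). With palbociclib *CDT1* and *TK1*, for a replication licensing factor and thymidine kinase, had the largest falls (−3.96 ± 0.50, adjusted p = 0.00911, and −3.54 ± 0.85, adjusted p = 0.0424). No gene of this list had a mean above 0. The gene not called under either treatment was *CCNE1*, for cyclin E1, which was singled out after its values were seen (−0.58 ± 0.22, adjusted p = 0.164, and −0.38 ± 0.20, adjusted p = 0.236). *CCNE2*, for cyclin E2, was named beside it for the same reason and changed by −1.30 ± 0.23 (adjusted p = 0.0238) and −2.78 ± 0.57 (adjusted p = 0.0274).

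Of 15 G2/M genes, 15 were called lower with each treatment (7.48% of all genes with knockdown and 13.6% with palbociclib), with medians of −1.20 and −3.62. *TOP2A*, for topoisomerase IIα, changed by −1.35 ± 0.17 (adjusted p = 0.0176) and −4.02 ± 0.68 (adjusted p = 0.0169), *KIF11*, for a spindle motor, by −1.35 ± 0.17 (adjusted p = 0.0176) with knockdown, and *AURKB*, for the mitotic kinase Aurora B, by −3.89 ± 0.71 (adjusted p = 0.02) with palbociclib. These genes mark cycling cells and moved with the 4 E2F genes, with medians by line of −1.37, −1.65 and −0.48 with knockdown and −3.22, −5.70 and −1.95 with palbociclib in the order NALM-6, RS4;11, BV-173. In bulk samples fewer cycling cells and less RNA per cell cannot be told apart.

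For the 4 members past the fold in 6 of 6 comparisons, the genes most like them were sought by the root mean square (RMS) difference of the 6 log2 ratios. *E2F1* was most like *DSCC1* (RMS 0.19), *POLE2* (0.20) and *ATAD5* (0.22), which serve replication forks. *E2F2* was most like *ATAD2* (0.23), for a chromatin protein, and *KNTC1* (0.25) and *CENPH* (0.25), for kinetochore proteins. *E2F7* was most like *CIT* (0.24), for citron kinase of cell division, the motor gene *KIF11* (0.30) and *CENPF* (0.31), for a kinetochore protein. *E2F8* was most like *RAD51AP1* (0.20), for a DNA repair factor, the kinase gene *MELK* (0.24) and *NUF2* (0.24), for another kinetochore protein. Within the family, the closest pairs were *E2F6* and *TFDP1* (0.26), *E2F3* and *E2F4* (0.36), *E2F3* and *E2F6* (0.40), and *E2F1* and *E2F2* (0.47). These are descriptions over 6 comparisons that share the cell lines. The RMS is also small between genes that barely change, and *E2F3* and *E2F4* were past the fold in no comparison.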

How the data were processed

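RNA from 34 cultures of 3 B-ALL cell lines was sequenced in 12 groups, assigned by the labelled line and treatment. Per the submitters' processing notes, the authors used Bowtie2, RSEM, DESeq2 and hg38. The authors' deposited tables, 1 per comparison, hold a signal per group (a level made from all its samples and scaled within the pair) and the gene length as another column. They also hold the authors' log2 fold change, p-value and adjusted p, which were not used. No level was 0. Log2 ratios of genes at a mean level of up to 1 spread less than those at 10 to 50. The SD was 0.14 against 0.64 in NALM-6 with knockdown and 0.18 against 0.87 in BV-173 with palbociclib, and every comparison had this order. The cause was not tested, and ratios of genes at low level carry that limit. The model planned for levels per sample, with the cell line as a block, could not be fitted to group levels.

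Log2 ratios of treated to control level, with no pseudocount, were tested over 3 lines with limma 3.58.1 (R 4.3.3; intercept only, eBayes with trend) on 13307 genes, with Benjamini-Hochberg adjustment. This was also done for the palbociclib minus knockdown difference. Tables and figures were made with matplotlib 3.10.9, pandas 2.3.3 and numpy 2.4.6 under Python 3.11.15. The precision is that of agreement between lines, since depth is unknown.

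Named were the 10 members, *CCND3*, from each pathway list the 2 largest mean rises and falls under each treatment (where the list had any, and *CCNE1* and *CCNE2* outside this rule), and the 3 nearest genes of members past 1.5-fold one way in at least 4 of 6 comparisons. The members and lists were chosen with earlier results of these data known. Alternatives were the median taken out, pseudocounts of 1 and 10, a level of at least 10, 2-fold, other priors, other gene sets, each line left out and, added after seeing the data, an adjusted p under 0.05.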

Additional observations from a re-analysis of the deposited data

Results flagged for a closer look

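In 4 cases the lines moved in opposite directions under 1 treatment. These differences between lines were not tested, since each line gives 1 ratio. The log2 ratio of *TFDP2* with knockdown was 1.13 higher in NALM-6 (0.55) than in BV-173 (−0.58), where its control level was 27.5. That of *E2F3* with palbociclib was 0.66 higher in NALM-6 (0.37) than in RS4;11 (−0.29). That of *E2F4* was higher in BV-173 than in RS4;11 by 0.31 with knockdown (0.18 against −0.13) and by 0.61 with palbociclib (0.49 against −0.11). *E2F3* and *E2F4* stayed within 1.5-fold in each of these comparisons.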

How the results depend on the processing

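No paired analysis was possible because the tables hold 1 level per group and none per sample. Of 310 values of members under alternatives, 276 kept their direction and their side of the threshold, 26 lost the call, 3 gained it and 5 turned. *E2F1*, *E2F2*, *E2F7* and *E2F8* were called lower under all 11 alternatives for each treatment, with adjusted p up to 0.088. With 1 line left out, the knockdown change of *E2F4* ran from −0.055 (without BV-173) to 0.10 and that of *TFDP2* from −0.38 to 0.18 (without BV-173), the palbociclib change of *E2F3* from −0.18 (without NALM-6) to 0.15, and the treatment difference of *E2F6* from −0.10 to 0.083 (without BV-173). The palbociclib change of *E2F3* was −0.035 with medians taken out. None of these 5 was called in either form. The cause was not tested.

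The counts over all genes moved more. With knockdown 996 genes were called lower and 659 higher, which became 640 and 336 with a pseudocount of 10, 552 and 278 without the trend, 575 and 266 at an adjusted p under 0.05, and 370 to 1402 and 122 to 930 with 1 line left out, lowest without RS4;11 and highest without BV-173, and 505 and 278 without NALM-6. With palbociclib 1816 lower and 1489 higher calls became 1005 to 1426 and 698 to 997 with 1 line left out (1005 without RS4;11, and 698 without NALM-6), and the higher calls 742 at 0.05. For the treatment difference, 953 and 554 became 47 and 23 without the trend, and 378 to 640 and 102 to 354 with 1 line left out (lowest without NALM-6), and the higher calls 366 with a pseudocount of 10. The threshold of 0.05 was also tried for this difference, and its counts are not given here. Leaving out a line lowers the number of ratios to 2. At 2-fold, 1 member in place of 4 was lower in BV-173 with knockdown, and the genes past the fold numbered 66 to 1783 per comparison and direction, in place of 490 to 3338. In NALM-6 with palbociclib the 3338 higher genes became 2119 with a pseudocount of 10 and 2185 at a level of at least 10. The mean activator share of the controls was 44.4% per kb and 54.8% without division by length. Depth per sample is unknown, and 1 level per group hides the spread between cultures.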

Other observations

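Genes outside the family whose promoter held 1 of the 4 E2F words were described in the same way. In NALM-6 with knockdown 16.7% of 707 such genes were lower by 1.5-fold or more, against 8.39% of all 11887 genes with a promoter in the table. The shares were 21.9% and 9.43% in RS4;11, and 9.83% and 4.79% in BV-173. With palbociclib they were 28.5% and 15.2% in NALM-6, 28.9% and 14.7% in RS4;11, and 24.2% and 11.97% in BV-173. Genes with a word were past the fold in the higher direction less often by these shares, 13.0% against 20.7% in NALM-6, 11.4% against 16.0% in RS4;11 and 8.91% against 13.2% in BV-173 with palbociclib. These are descriptions without a test, and most genes with a word stayed within 1.5-fold.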
